A study of Saccharomyces cerevisiae with 12 samples.

Results

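AQY1 (YPR192W), SDH9 (YJL045W), SPS100 (YHR139C), YDL218W, YCL048W-A, YKL107W and YKL106C-A are 7 budding yeast genes whose transcripts were strongly lower than in wild type in each of 3 fast-fermenting mutants. They were picked from the 5777 genes with values in the deposited table for a fall beyond 2-fold in the mutants fhf1, fhf2 and fhf3 alike. That condition alone was met by 29 genes, or 0.502% of the genes, and all 7 also lay beyond a log2 difference of -2 in each mutant. Their differences from wild type therefore chose them, and are given here as a description with no test.

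The strains were Saccharomyces cerevisiae Y55 (JT20150, MAT-alpha MAL1 SUC1) and 3 mutants made from it by UV, each labelled as fermenting maltose fast. Each strain was grown as 3 separate cultures in stirred, semi-aerobic 200 mL fermentations of rich medium with 20% maltose at 22 °C and was sampled on day 2. Every mutant group is 1 UV-induced mutant strain, and the mutated genes are not given in the labels. Polyadenylated RNA was copied into double-stranded cDNA, labelled with Cy3 and hybridised to a 1-colour array that carries 8 probes for each gene of strain S288C, so a probe may bind Y55 transcripts less well where the strains differ in sequence. A strain's transcript levels and the stage its fermentation had reached on day 2 cannot be told apart.

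Yeast cells that run out of fermentable sugar slow their growth, turn to respiration and the use of ethanol, and switch on genes for stationary phase and stress. Diploid cells starved of nitrogen on a poor carbon source can go further and form spores, whose wall is assembled in layers around each nucleus. Among the 7 genes, AQY1 encodes a water channel linked to spore maturation and freezing tolerance, SDH9 a minor isozyme of the flavoprotein subunit of succinate dehydrogenase, and SPS100 a protein that helps the spore wall mature. The other 4 encode proteins of unknown or poorly known function.

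Levels are log2 values per gene and array, as deposited, and levels of different genes are not comparable because their probes differ. The 12 arrays were not set to a common median: array medians lay between 12.09 and 12.98, with fhf1 replicate 2 at 12.15 against 12.84 and 12.85 for the other fhf1 arrays. The median gene differed from wild type by 0.05 on the log2 scale in fhf1, 0.10 in fhf2 and -0.28 in fhf3. Differences after each array was centred on its own median are therefore given beside those of the deposited values. The lowest gene of each array lay between 7.58 and 7.78, which is taken here as the floor of the measurement. The background of each gene's own probes is not known and may lie higher. Over all genes, arrays of 1 strain correlated at 0.964 to 0.991, and wild-type with fhf3 arrays at 0.858 to 0.882. In the bulk RNA used here, fewer cells with a transcript and less transcript per cell cannot be told apart.

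AQY1 in fhf3 showed the widest difference from wild type among the 7 genes. In the 3 wild-type cultures its log2 level was 13.64, 14.25 and 13.98. In fhf1 it was 12.16, 10.24 and 11.50, in fhf2 11.23, 11.39 and 10.91, and in fhf3 8.17, 8.21 and 8.23. Every mutant array lay below every wild-type array, and the fhf3 arrays lay below all arrays of the other mutants. The means were 13.96 ± 0.31 in wild type, 11.30 ± 0.98 in fhf1, 11.18 ± 0.24 in fhf2 and 8.21 ± 0.03 in fhf3 (SD, n = 3 each). AQY1 was thus 6.31-fold lower in fhf1, 6.87-fold lower in fhf2 and 53.9-fold lower in fhf3, or 41.5-fold lower in fhf3 with centred arrays. In fhf3 its mean stood only 0.55 above the lowest gene of the array, so the array floor limits how far a further fall could be seen.

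SDH9, whose protein is a paralogue of the main flavoprotein subunit Sdh1, was likewise highest in wild type and lowest in fhf3. Its log2 level was 13.19, 13.44 and 13.45 in wild type, 11.25, 9.76 and 10.51 in fhf1, 10.75, 10.74 and 10.62 in fhf2 and 8.22, 8.02 and 8.35 in fhf3. The fhf1 and fhf2 arrays overlapped, and the fhf3 arrays again lay apart at the bottom. Means were 13.36 ± 0.14 in wild type, 10.50 ± 0.74 in fhf1, 10.70 ± 0.07 in fhf2 and 8.20 ± 0.17 in fhf3 (SD, n = 3 each). The level was 7.25-fold lower in fhf1, 6.32-fold lower in fhf2 and 35.8-fold lower in fhf3 (27.5-fold with centred arrays), and the fhf3 mean was 0.55 above the floor.

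SPS100 separated all 4 strains. Its level was 13.79, 14.04 and 13.83 in wild type, 12.41, 11.04 and 12.03 in fhf1, 10.76, 10.96 and 10.83 in fhf2 and 9.53, 9.47 and 9.89 in fhf3. No 2 of these groups overlapped, with wild type highest, then fhf1, fhf2 and fhf3. Means were 13.89 ± 0.13, 11.83 ± 0.71, 10.85 ± 0.11 and 9.63 ± 0.23 in that order (SD, n = 3 each). SPS100 was 4.16-fold lower in fhf1, 8.20-fold lower in fhf2 and 19.1-fold lower in fhf3 (14.7-fold with centred arrays). The fhf3 mean stayed 1.98 above the floor.

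YDL218W, a gene of unknown function that the deposited annotation describes as induced by starvation, was about equally low in the 3 mutants. Its level was 13.60, 14.11 and 13.80 in wild type, 10.70, 9.68 and 10.37 in fhf1, 10.35, 10.27 and 10.41 in fhf2 and 10.01, 9.84 and 10.17 in fhf3. The fhf1 arrays overlapped those of both other mutants, and all 9 mutant arrays lay well under wild type. Means were 13.84 ± 0.26 in wild type, 10.25 ± 0.52 in fhf1 and 10.34 ± 0.07 in fhf2, and the fhf3 arrays had an SD of 0.16 (n = 3 each). The level was 12.0-fold, 11.3-fold and 14.3-fold lower (11.0-fold in fhf3 with centred arrays). Genes were ranked from the lowest log2 difference among the 5769 with array values. YDL218W stood at place 1 in fhf1 and 2 in fhf2 but at 18 in fhf3, where AQY1 and SDH9 took places 2 and 3. In fhf3 the mean of YDL218W was 2.35 above the lowest gene of the array, but the background of its own probes is not known.

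YCL048W-A, a small open reading frame of unknown function, varied most between wild-type cultures. Its level was 11.18, 12.33 and 11.88 in wild type, 8.78, 8.55 and 9.74 in fhf1, 9.14, 9.44 and 9.51 in fhf2 and 8.45, 8.66 and 8.76 in fhf3. The fhf1 arrays overlapped those of both other mutants, whereas the fhf2 and fhf3 arrays did not overlap. The wild-type mean was 11.80 ± 0.58 (SD, n = 3), and the fall was 6.83-fold in fhf1, 5.40-fold in fhf2 and 9.01-fold in fhf3 (6.93-fold with centred arrays).

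YKL107W, which resembles short-chain dehydrogenases, and the small open reading frame YKL106C-A lie next to each other on chromosome XI and had nearly the same profile. YKL107W was at 11.71, 12.24 and 11.71 in wild type, 10.07, 9.19 and 9.94 in fhf1, 9.67, 9.85 and 9.73 in fhf2 and 9.19, 9.13 and 9.48 in fhf3. YKL106C-A was at 10.60, 11.04 and 10.90 in wild type, 9.10, 8.31 and 8.85 in fhf1, 8.67, 8.91 and 8.73 in fhf2 and 8.30, 8.33 and 8.40 in fhf3. For both genes wild type was clear of every mutant array, fhf2 and fhf3 did not overlap, and fhf1 overlapped fhf2. YKL107W was 4.45-fold lower in fhf1, 4.40-fold in fhf2 and 6.14-fold in fhf3, and YKL106C-A 4.27-fold, 4.21-fold and 5.66-fold. YKL106C-A in fhf3 was 0.69 above the floor and YKL107W 1.61 above it.

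**Figure D1:**
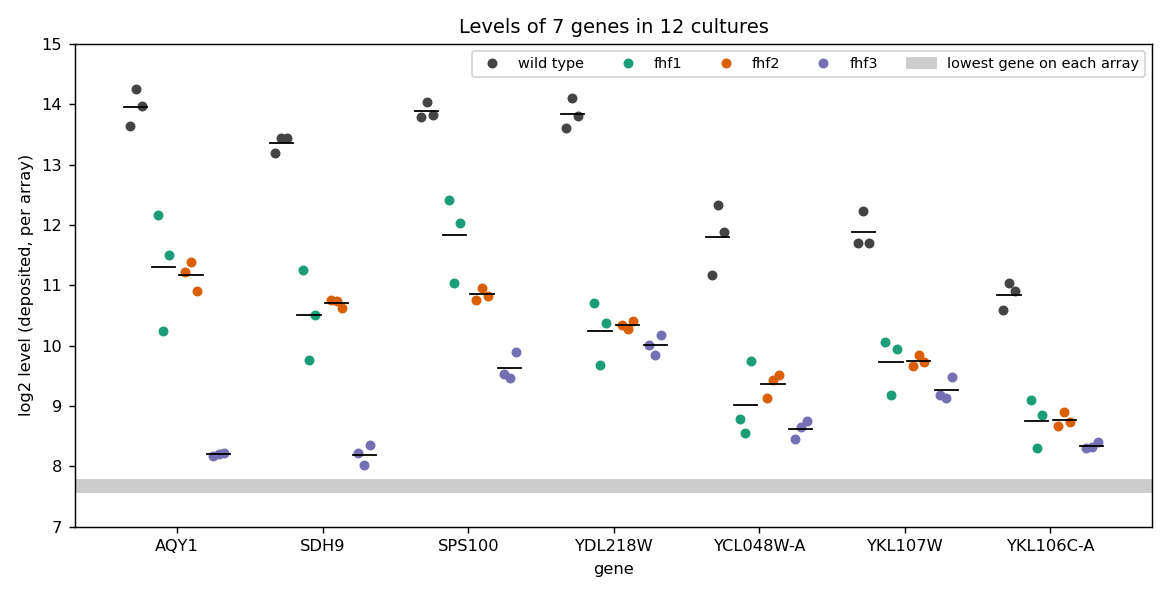
Log2 level (y axis) of the 7 genes (x axis) on each of the 12 arrays. Points are cultures coloured by strain, black lines are means of 3 cultures, and the grey band spans the lowest gene of each array (7.58 to 7.78). Wild type is above all mutant arrays for every gene, and AQY1 and SDH9 in fhf3 lie just above the band.

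The fhf1 arrays were the most spread, with SDs of 0.40 to 0.98 over the 7 genes against 0.07 to 0.24 in fhf2 and 0.03 to 0.23 in fhf3. Replicate 2 was the lowest fhf1 array for each of the 7 genes, and it also had the lowest array median. With centred arrays the fhf1 SDs were 0.10 to 0.62. For all 7 genes every mutant array lay below every wild-type array. Their choice by large differences of means favoured this, though it did not ensure it. Over all genes it held for 3.64% in fhf1, 4.44% in fhf2 and 31.8% in fhf3. Centring left the sign of every difference from wild type as it was, and brought fhf3 for YDL218W (-3.45) level with fhf1 (-3.60) and fhf2 (-3.57) on the log2 scale.

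**Figure D2:**
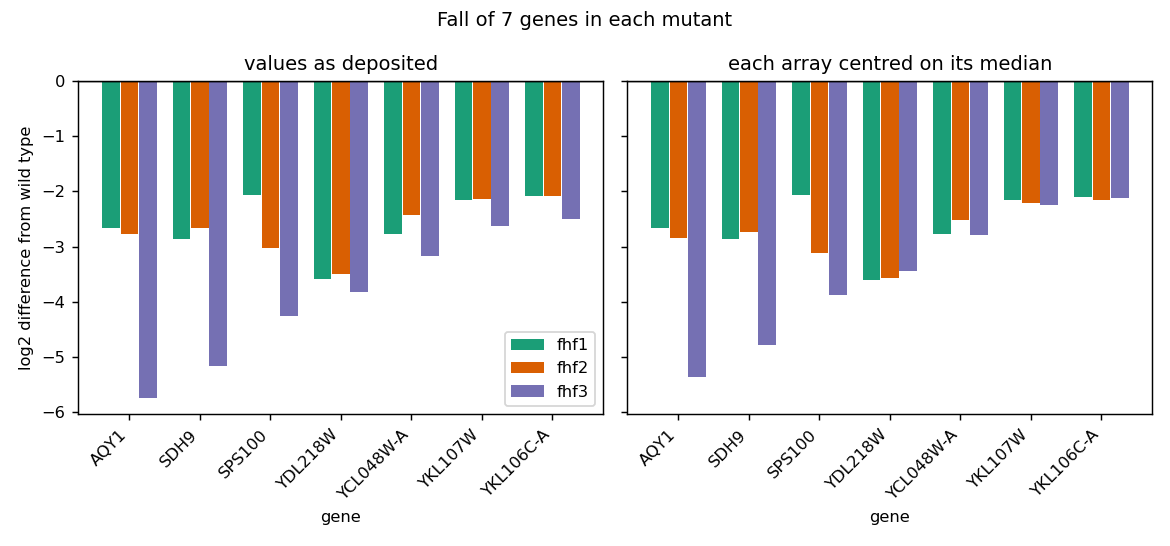
Log2 difference from wild type (y axis) for the 7 genes (x axis) in fhf1, fhf2 and fhf3, as deposited (left) and with each array centred on its median (right). Bars are differences of means of 3 cultures and start at 0. AQY1, SDH9 and SPS100 reach furthest in fhf3 (-5.75, -5.16 and -4.25), while the other 4 genes have bars of similar length in the 3 mutants.

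Differences between mutants were tested with limma on all genes and Benjamini-Hochberg adjustment, as 21 comparisons of the 7 genes. The mutant arrays also entered the choice of the genes, and a gene with a weak fall in any mutant could not be among them. Between fhf3 and fhf1 34.1% of all genes were called in either direction (48.6% with centred arrays), and between fhf3 and fhf2 34.8% (46.5% with centred arrays). Against that background, 3 of the 7 genes were called between fhf3 and fhf1, and 4 between fhf3 and fhf2 (3 with centred arrays).

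The 3 genes with known roles fell further in fhf3 than in the other mutants. AQY1 was lower in fhf3 than in fhf1 by a log2 difference of -3.10 (95% interval -3.63 to -2.56, adjusted p = 1.82e-20) and lower than in fhf2 by -2.97 (-3.51 to -2.43, adjusted p = 2.81e-19). SDH9 differed by -2.30 from fhf1 (-2.83 to -1.78, adjusted p = 2.69e-13) and by -2.50 from fhf2 (-3.03 to -1.98, adjusted p = 2.85e-15). SPS100 differed by -2.20 from fhf1 (-2.72 to -1.67, adjusted p = 2.43e-12) and by -1.22 from fhf2 (-1.75 to -0.69, adjusted p = 0.000114). In each of these 6 comparisons all 3 fhf3 arrays lay below all 3 of the other mutant, as they did for 28.8% of all genes against fhf1 and 56.9% against fhf2. Of all genes, 25.2% were called lower in fhf3 than in both other mutants (18.1% with centred arrays). With centred arrays the differences from fhf1 were -2.71 for AQY1, -1.91 for SDH9 and -1.81 for SPS100, and those from fhf2 were -2.52, -2.05 and -0.77, all called.

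The 4 genes of poorly known function gave smaller differences. Their means in fhf1 and fhf2 were 1.07 (YKL106C-A) to 2.64 (YDL218W) above the lowest gene of the array. A further fall as large as that of AQY1 in fhf3 could thus not have been seen. YDL218W stood 2.58 above the lowest gene in fhf1 and 2.64 in fhf2, near SDH9 at 2.83 and 3.00. From those levels SDH9 differed by -2.30 and -2.50 in fhf3. Whether the floor kept the differences of the 4 genes small was not tested. Between fhf3 and fhf1 the difference was -0.24 for YDL218W (95% interval -0.76 to 0.28), -0.40 for YCL048W-A (-0.93 to 0.13), -0.47 for YKL107W (-0.98 to 0.05) and -0.41 for YKL106C-A (-0.92 to 0.11), with adjusted p of 0.486, 0.242, 0.16 and 0.219. These intervals leave room for a fall of up to about 1 log2 unit further in fhf3. Without fhf1 replicate 2, YDL218W (-0.53, adjusted p = 0.0435), YKL107W (-0.74, adjusted p = 0.00826) and YKL106C-A (-0.63, adjusted p = 0.0156) did pass. With centred arrays and all replicates the 4 differences were 0.15, -0.01, -0.08 and -0.02, of which none passed.

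Between fhf3 and fhf2, YCL048W-A passed at -0.74 (95% interval -1.27 to -0.21, adjusted p = 0.0243) but not with centred arrays (-0.29, adjusted p = 0.226). It was also lost without fhf2 replicate 2 (adjusted p = 0.0874) or 3 (0.1), and without fhf3 replicate 1 (0.114) or 2 (0.061). The differences of YDL218W (-0.34, interval -0.86 to 0.18), YKL107W (-0.48, -1.0 to 0.04) and YKL106C-A (-0.43, -0.94 to 0.09) missed the threshold, at adjusted p of 0.317, 0.141 and 0.193. In a fit of only these 2 strains YKL107W (adjusted p = 0.00821) and YKL106C-A (adjusted p = 0.0164) passed. All 3 fhf3 arrays lay below all 3 fhf2 arrays for each of the 7 genes, but so they did for 56.9% of all genes, and the median gene was also lower in fhf3 (-0.42).

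Between fhf1 and fhf2 limma called 0 of the 7 genes, against 0.312% of all genes (1.68% with centred arrays), and 1 of the 7 had an unadjusted p under 0.05. That gene was SPS100, higher in fhf1 by 0.98 (95% interval 0.45 to 1.5, adjusted p = 0.078) with no overlap of the groups. With centred arrays its difference was 1.04 and passed (adjusted p = 0.000665), as it did without fhf1 replicate 2 (1.37, adjusted p = 0.00342), without wild-type replicate 1 (adjusted p = 0.0237) or 2 (0.00815), and in a fit of only these 2 strains (0.0399). The other 6 genes differed by between -0.34 for YCL048W-A (-0.87 to 0.19) and 0.12 for AQY1 (-0.42 to 0.66), all at an adjusted p of 1.

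The choice of the 7 genes left close company outside it. SPG4, a stationary phase gene, was at log2 differences of -3.59, -3.87 and -4.30 from wild type in the same order of mutants, and was the eighth gene below -2 in all 3 mutants, although it is not one of the 7. The weakest difference among the 7 was that of SPS100 in fhf1 (-2.06). Next came THI4, the thiazole synthase of thiamine synthesis, at -1.91, -2.38 and -2.72. The other 20 genes below -1 in all 3 mutants were DPA10, DPC7, FMP45, SPG1, ECM12, YHR022C, SFC1, NDE2, SSA3, YOR186W, HXT5, PCK1, PMA2, LPX2, PHO3, ALD2, SHH4, YBR221W-A, SRX1 and ICS2. The gene nearest inside the 2-fold threshold was ICS2 (-1.04, -1.06 and -1.40). Just outside were SWI5 (-1.65, -1.0 and -1.79, with fhf2 just short of the threshold), AIM20 (-1.79, -0.99 and -1.53) and CWP1 (-1.62, -0.98 and -3.68). With centred arrays 36 genes were below -1 in all 3 mutants, and 8 were again below -2.

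A few of the 22 are given as examples. NDE2, a mitochondrial NADH dehydrogenase, was at -1.77, -1.56 and -4.18 in fhf1, fhf2 and fhf3, and PCK1, the gluconeogenic phosphoenolpyruvate carboxykinase, at -1.41, -1.49 and -2.79. HXT5, a hexose transporter expressed in slowly growing cells, was at -1.84, -1.49 and -3.09. Over the 22 genes the median difference was -1.71, -1.68 and -2.80, against -2.66, -2.66 and -3.83 over the 7, which is a result of how the 7 were chosen. Of the 22, 13 were lower in fhf3 than in both other mutants (12 with centred arrays), against the 25.2% and 18.1% of all genes given above. Another 4 passed against neither (2 with centred arrays). With centred arrays ECM12 was called higher in fhf3 than in fhf1 (0.65) and fhf2 (0.40). YHR022C was likewise higher (0.54 and 0.43), and PHO3 was higher than in fhf1 (0.48). The arrays of all 3 mutants, fhf3 included, entered the choice of the 22. These counts are therefore a description, and no excess over all genes is read from them. The 3 comparisons share the wild-type arrays, so a high or low wild-type value enters all of them.

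**Figure D3:**
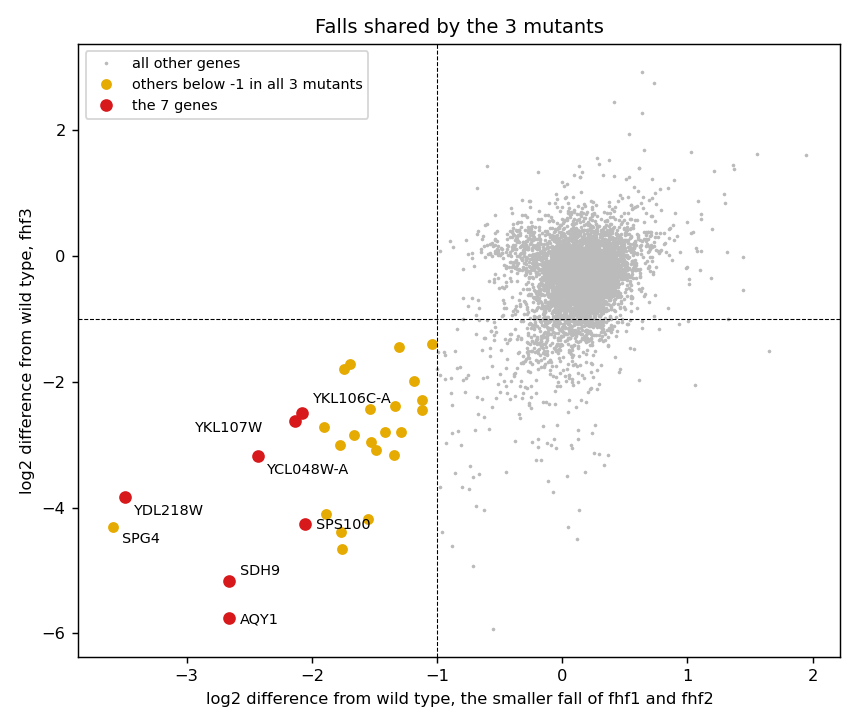
Each point is 1 gene, with the smaller of its falls in fhf1 and fhf2 on the x axis and its difference in fhf3 on the y axis, both as log2 differences from wild type. Red points are the 7 genes, yellow points the other 22 below -1 (dashed lines) in all 3 mutants, and grey points all others. AQY1 and SDH9 stand at the bottom, and SPG4 lies beside the 7.

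The genes on either side of the 7 were examined next, with the gene order taken from the R64 annotation of S288C. Among the 2 nearest annotated genes on each side, with the nearest measured gene added where those had no values, 25 were analysed here, of which 21 had array values. The 4 with no values were a pair of tRNA genes beside SDH9, the small gene YHR139C-A, and the antisense transcript SUT169, which overlaps SPS100. Since double-stranded cDNA was labelled, the strand of origin of a signal is not known, and the values of SPS100 may hold signal from SUT169.

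In fhf1 and fhf2 limma called 0 of 21 neighbours in each mutant, a count near the background, since 2.08% of all genes were called lower and 0.589% higher in fhf1, and 0.797% lower and 0.225% higher in fhf2. At an unadjusted p under 0.05 there was 1 neighbour in fhf1 and there were 2 in fhf2. Differences ran from -0.55 to 0.42 in fhf1 (median -0.08) and from -0.59 to 0.62 in fhf2 (median 0.03), in both cases between SPS22 and AIM22. With centred arrays these 2 genes passed in both mutants, SPS22 lower and AIM22 higher. Over all genes that scaling called 551 of 5769 lower and 422 higher in fhf1, and 252 and 114 in fhf2. No excess is therefore read from 1 neighbour of 21 in each direction.

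In fhf3, 9 of the 21 neighbours were called lower and 0 higher, where 22.8% of all genes were called lower and 1.98% higher. With centred arrays 9 were lower and 3 higher, against 20.4% and 27.2% of all genes. The 3 higher were APA1 (0.81), AAT1 (0.66) and DTD1 (0.50), of which none was called as deposited. The median neighbour was at -0.50 and the 21 ranged from -1.06 to 0.43. Centring turned the sign in fhf3 for 5 neighbours that were called under neither scaling, RPC82 (-0.23 to 0.15), AIM22 (-0.32 to 0.06), YJL043W (-0.28 to 0.10), TIM22 (-0.22 to 0.16) and SLD2 (-0.21 to 0.17). Of the 9, 5 passed whichever replicate was left out, namely OPT2, SPS22, HAP4, ARO9 and YHR138C. The other 4 were lost without single libraries: QCR2 without fhf3 replicate 1 (adjusted p = 0.165) or 2 (0.157) or wild-type replicate 2 (0.0874) or 3 (0.0844), and CDC13 without fhf3 replicate 2 (0.0501). YHR140W was lost without fhf3 replicate 1 (0.145) or 2 (0.0501) or wild-type replicate 2 (0.151). RRI1 was lost without fhf3 replicate 1 (0.157) or 2 (0.148), wild-type replicate 2 (0.139) or 3 (0.152), or fhf2 replicate 1 (0.05) or 3 (0.0507).

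At the AQY1 locus on chromosome XVI, the adjacent QCR2, a core subunit of respiratory complex III, was at 0.17 in fhf1, 0.04 in fhf2 and -0.71 in fhf3 (adjusted p = 0.0311). OPT2, an oligopeptide transporter family gene, was at 0.18, 0.23 and -1.06 (adjusted p = 0.000742 in fhf3).

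Beside SDH9 on chromosome X, GYP6, a GTPase-activating protein of vesicle traffic, was at -0.02, -0.09 and -0.50. None of the measured neighbours was called in any mutant on the deposited scale. With centred arrays AIM22 was called higher in fhf1 (0.41) and fhf2 (0.55). Beside SPS100 on chromosome VIII, ARO9, an aromatic aminotransferase, was at -0.08, -0.03 and -0.96 (adjusted p = 0.00266 in fhf3), and YHR138C at -0.15, -0.19 and -0.90 (adjusted p = 0.00523 in fhf3). The difference of SPS100 itself in fhf3 was -4.25.

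Next to YDL218W on chromosome IV, DTD1, a D-aminoacyl-tRNA deacylase, was at -0.46, 0.13 and 0.12, and TIM22, a mitochondrial protein import gene, at 0.34, 0.45 and -0.22. DTD1 was called higher in fhf3 with centred arrays (0.50). CDC13, which protects telomeres, was at -0.43, -0.15 and -0.90 (adjusted p = 0.00517 in fhf3). FMP45, also below -1 in all 3 mutants, lies 3 genes from YDL218W, and its differences were -1.82, -1.76 and -4.39.

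On chromosome III, YCL048W-A adjoins SPS22, a gene of spore wall formation. SPS22 had a level of 9.29 ± 0.11 in wild type, 8.74 ± 0.35 in fhf1, 8.70 ± 0.16 in fhf2 and 8.23 ± 0.28 in fhf3 (SD, n = 3 each), and neither mutant fhf1 nor fhf2 overlapped wild type. The wild-type mean of SPS22 was already below the 5th percentile of each wild-type array (9.70 to 10.40). In fhf3 the lowest gene of the arrays lay at 7.61 to 7.69, so the floor limits how far SPS22 could be seen to fall. Its differences were -0.55 (adjusted p = 0.456), -0.59 (adjusted p = 0.737) and -1.05 (adjusted p = 0.000807), and all 3 passed with centred arrays (-0.56, -0.66 and -0.67). On the other side, YCL049C was at 0.06, 0.09 and -0.48. Beyond it, APA1 was at -0.13, 0.01 and 0.43, and was called higher in fhf3 with centred arrays (0.81).

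YKL107W and YKL106C-A are flanked by SLD2, a DNA replication gene, at -0.20, 0.15 and -0.21, and by AAT1, the mitochondrial aspartate aminotransferase, at -0.19, -0.02 and 0.28. The low pair thus sat between genes of which neither passed in any mutant on the deposited scale, while AAT1 was called higher in fhf3 with centred arrays (0.66). YKL107W and YKL106C-A are the only adjacent genes among the 7. By their systematic names they lie on opposite strands, and the R64 annotation shows no overlap between them. Among all 29 genes below -1 in every mutant, ECM12 and YHR022C on chromosome VIII were the other adjacent pair. HAP4, the activating subunit of a regulator of respiratory genes, lies on the far side of SLD2 and was at 0.09, 0.09 and -1.04 (adjusted p = 0.000928 in fhf3).

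**Figure D4:**
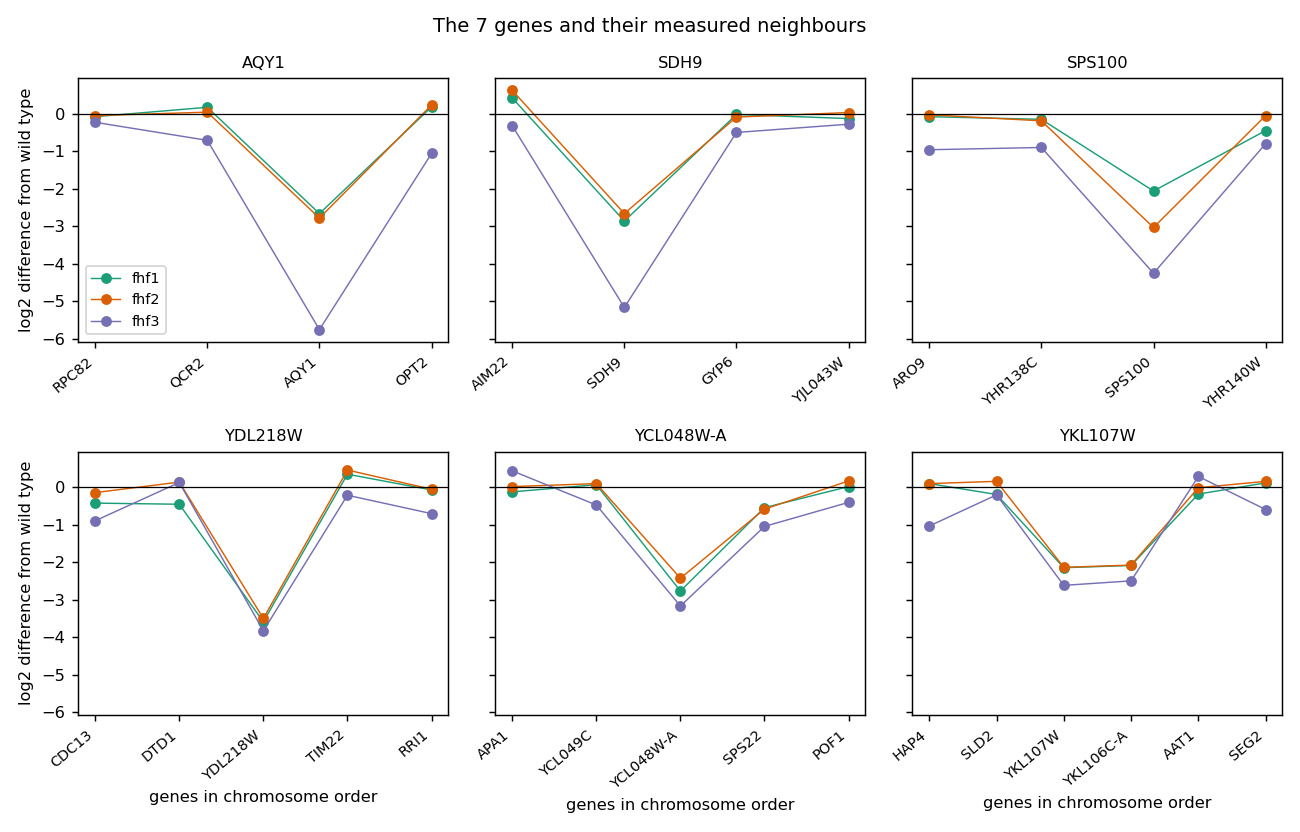
Log2 difference from wild type (y axis) of the 7 genes and of the 21 neighbours with array values, in chromosome order (x axis, not to scale), 1 panel per locus, with lines joining the values of 1 mutant. Each locus shows a dip at the named gene in all 3 mutants, and YKL106C-A is low beside YKL107W.

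Among the water and glycerol channels related to AQY1, the other 3 are AQY2, FPS1 and AQY3 (YFL054C). In fhf1 and fhf2 limma called 0 of these 3, which is near the background of 2.08% lower and 0.589% higher in fhf1 and 0.797% and 0.225% in fhf2, with 1 gene, FPS1, at an unadjusted p under 0.05 in each. AQY2, the second aquaporin gene, was at 0.13 in fhf1 (95% interval -0.39 to 0.65), 0.14 in fhf2 (-0.38 to 0.66) and -0.72 in fhf3 (adjusted p = 0.0303), where it was lost with centred arrays (-0.34, adjusted p = 0.0514). That call in fhf3 was also lost without fhf3 replicate 1 (adjusted p = 0.0703) or 2 (0.195), or wild-type replicate 2 (0.0603) or 3 (0.0929). AQY3, an aquaglyceroporin-like gene, was at -0.94 in fhf3 (adjusted p = 0.00303). FPS1, the glycerol export channel, was at 0.55, 0.52 and 0.30, and passed as higher in fhf1 (0.54) and fhf3 (0.68) with centred arrays.

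Succinate dehydrogenase oxidises succinate in the tricarboxylic acid cycle and passes the electrons to the respiratory chain. Besides SDH9, 9 genes of its subunits, paralogues and assembly factors were measured, with a median difference from wild type of 0.05 for fhf1, 0.20 for fhf2 and -1.17 for fhf3, against 0.05, 0.10 and -0.28 over all genes. In fhf3 all 9 fell, where 22.8% of all genes did (8 with centred arrays, where SDH7 was lost, against 20.4% of all genes). In fhf1 2 fell, against 2.08% of all genes, and in fhf2 1 fell, against 0.797%. The main flavoprotein gene SDH1 was at 14.67 ± 0.26 in wild type, 14.79 ± 0.28 in fhf1, 14.86 ± 0.08 in fhf2 and 13.50 ± 0.19 in fhf3 (SD, n = 3 each), a difference of 0.12, 0.20 and -1.17 (adjusted p = 0.000162 in fhf3). Its paralogue SDH9 was thus lower by -2.86 and -2.66 in mutants in which SDH1 was not called.

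The 2 genes called in fhf1 were paralogues of membrane anchor subunits, and SHH4 alone was called in fhf2. SHH4, the paralogue of SDH4 and 1 of the 29 genes above, was at -1.19 (adjusted p = 0.00123), -1.53 (adjusted p = 8.59e-06) and -1.98 (adjusted p = 1.41e-10). SHH3, the paralogue of SDH3, was at -1.03 (adjusted p = 0.00816), -0.81 (adjusted p = 0.168) and -3.0 (adjusted p = 7.87e-21). The SHH3 call in fhf1 was lost without fhf1 replicate 2 (adjusted p = 0.0825) or wild-type replicate 2 (0.0887), while with centred arrays SHH3 passed in all 3 mutants. In fhf3 SDH7 was lost without fhf1 replicate 1 (0.0588), fhf3 replicate 1 (0.186) or 2 (0.0976), or wild-type replicate 2 (0.284) or 3 (0.094), and SDH8 without fhf3 replicate 1 (0.0592) or wild-type replicate 2 (0.11).

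**Figure D5:**
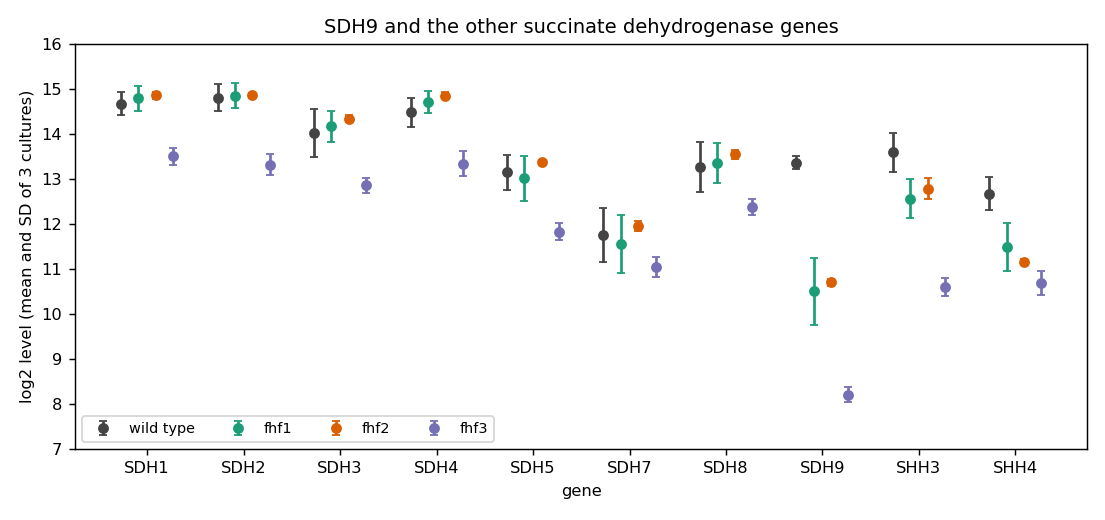
Log2 level (y axis, mean with SD of 3 cultures) of SDH9 and the other measured succinate dehydrogenase genes (x axis) in the 4 strains. SDH9, SHH3 and SHH4 are lower in all 3 mutants than in wild type, while SDH1 to SDH5, SDH7 and SDH8 are lower in fhf3 and were not called in fhf1 or fhf2.

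SPS100 is named for its expression in sporulation, and 21 other genes of the spore wall and sporulation were measured. In fhf1 2 of them fell and 1 rose, in fhf2 limma called 0 (3 lower and 2 higher at an unadjusted p under 0.05), and in fhf3 7 fell and 3 rose. Over all genes 2.08% fell and 0.589% rose in fhf1, 0.797% and 0.225% in fhf2, and 22.8% fell and 1.98% rose in fhf3. With centred arrays the counts were 5 lower and 4 higher in fhf1, 4 and 2 in fhf2, and 7 and 7 in fhf3. In that fit 551 of 5769 genes were lower and 422 higher in fhf1, and 252 and 114 in fhf2. In fhf3 20.4% of all genes were then lower and 27.2% higher. The median of the 21 was 0.12, 0.12 and -0.27, near that of all genes. IME1, the main activator of entry into meiosis, was at -1.09 (adjusted p = 0.0035), -0.53 (adjusted p = 0.934) and -2.26 (adjusted p = 2.02e-13), and passed in fhf2 with centred arrays (-0.60, adjusted p = 0.00658).

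The other 2 calls in fhf1 each rested on single libraries. SPS4 was at -0.90 (adjusted p = 0.0323), lost without fhf1 replicate 1 (0.137) or 2 (0.0842), fhf2 replicate 3 (0.0506), or wild-type replicate 2 (0.293) or 3 (0.0697). Its mean level was 8.78 in wild type and 7.87 in fhf1, where the lowest gene of the arrays lay at 7.58 to 7.73. SPS1, a kinase gene of spore wall formation, was at 0.94 (adjusted p = 0.0269), lost without fhf1 replicate 1 (0.594) or 3 (0.0968) or wild-type replicate 3 (0.0926). In fhf3 the genes that fell were SPS19 (-2.69), IME1, SPS18 (-1.22), SPS1 (-1.08), SPS22, SPS4 (-0.80) and SPR3 (-0.70), and those that rose were GAS4 (1.06), DIT2 (0.94) and SPS2 (0.84). Of these, SPS4 was lost without fhf3 replicate 1 (0.0715) or 2 (0.0774) or wild-type replicate 2 (0.23), and SPR3 without any of 8 single arrays (adjusted p up to 0.159). SPS19 encodes a peroxisomal enzyme of fatty acid oxidation. YGP1, the paralogue of SPS100, was at 0.15, 0.10 and -0.54 (adjusted p = 0.119 in fhf3).

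Of 9 regulators of genes for non-sugar carbon, 1 fell in fhf1, and 7 fell in fhf3, while in fhf2 limma called 0 (3 lower at an unadjusted p under 0.05). The share of all genes that fell was 2.08% in fhf1, 0.797% in fhf2 and 22.8% in fhf3. With centred arrays 2 were lower in fhf1, 2 in fhf2 and 7 in fhf3, where 20.4% of all genes were lower. In that fit 551 of 5769 genes were lower in fhf1 and 252 in fhf2. CAT8, an activator of gluconeogenic genes, was at -0.42, -0.53 and -2.27 (adjusted p = 1.81e-13 in fhf3), and ADR1, which activates genes for ethanol and fatty acid use, at -0.32, -0.53 and -2.25 (adjusted p = 2.78e-13 in fhf3). MIG1, the repressor of genes for other carbon sources when glucose is present, was the gene that fell in fhf1 (-1.33, adjusted p = 0.000108) and was at -0.30 in fhf2. In fhf3 it was at -0.73 (adjusted p = 0.0272), lost without fhf3 replicate 1 (0.128) or 2 (0.0959) or wild-type replicate 2 (0.074) or 3 (0.141). The median of the 9 was -0.31, -0.16 and -1.08.

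Likeness to the 7 genes was measured as the Pearson correlation over the 12 arrays with their mean, each gene centred on its own mean. The 8 genes with the highest values were SSA3 (0.995), SHC1 (0.983), LPX2 (0.981), THI4 (0.977), YOR186W (0.975), PCK1 (0.974), HXT5 (0.974) and SFC1 (0.972). SSA3 is a heat shock protein of the Hsp70 class, and SHC1 an activator of chitin synthase in sporulation. The arrays fall into strains, so these values describe a shared order of strains and carry no p. All but SHC1, at -0.94, -1.04 and -1.53, belong to the 29 genes below -1 in all 3 mutants. With centred arrays SSA3 was again first (0.991) and SHC1 moved to place 18 (0.949). Each of the 7 genes correlated with the mean of the other 6 at 0.937 (YDL218W) to 0.976 (YKL107W). All 7 were chosen for a fall in every mutant on these arrays, so no likeness beyond that choice is read from these values.

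The label MAT-alpha was checked against mating-type genes. In wild type the 5 alpha-specific genes had levels of 11.90 to 14.34, against array medians of 12.30 to 12.98. The 7 a-specific genes, which alpha cells repress, ranged from 9.55 for AGA2 and ASG7, below the 5th percentile of each wild-type array (9.70 to 10.40), to 12.38 for MFA1. Levels of different genes are not comparable, so these values do not settle the label. On the deposited scale limma called none of the alpha-specific, a-specific or haploid-specific genes in fhf1 or fhf2. Over all genes 2.08% were lower and 0.589% higher in fhf1, and 0.797% and 0.225% in fhf2. An unadjusted p under 0.05 was seen for 1 alpha-specific and 2 a-specific genes in fhf1 and 2 a-specific genes in fhf2. With centred arrays SAG1 (-0.68), MFA1 (-0.78) and RME1 (-0.47) were called lower and ASG7 (0.52) higher in fhf1. In fhf2 MFA1 (-0.70) and RME1 (-0.59) were then lower and AGA2 (0.50) higher. That scaling called 551 of 5769 genes lower and 422 higher in fhf1, and 252 and 114 in fhf2. In fhf3, where 22.8% of all genes were lower with a median of -0.28, 5 of 7 a-specific genes were lower (median -1.03). Of the haploid-specific genes 2 of 6 were lower, and 1 of 5 alpha-specific genes was higher, where 1.98% of all genes were higher. With centred arrays 5 a-specific and 2 haploid-specific genes were lower, against 20.4% of all genes. Then 3 alpha-specific genes and 1 haploid-specific gene were higher, against 27.2% of all genes. The alpha-specific gene called on the deposited scale, MF(ALPHA)2 (0.68, adjusted p = 0.048), was lost without any of 9 single arrays (adjusted p up to 0.364). The a-specific BAR1 (-0.78, adjusted p = 0.0167) was lost without fhf3 replicate 1 (0.0747) or 2 (0.0951), or wild-type replicate 2 (0.0806) or 3 (0.0725). Whether cells of the other mating type were present, and their part in the values of the 7 genes, was not tested.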

How the data were processed

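The authors deposited a value table with 1 log2 value per gene and array for 12 arrays, and a table of each mutant against wild type with log2 fold change, t statistic (a score), p-value and adjusted p-value. The submitters' processing notes name limma. How background, normalization and probe summary were handled is not given in the sources used here. Per-sample labels mention triplicate hybridisation, so repeat arrays may have been averaged. Of 5880 deposited rows 5777 carry values, and 5769 have array values. The deposited t is 0 up to a log2 size of 0.9999, as in a test against 2-fold, and differences of group means equal the deposited fold changes within 5e-08.

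Here limma 3.58.1 (R 4.3.3) was fitted to the log2 values of all 12 arrays as deposited, with 4 strain means and eBayes, two-sided, and Benjamini-Hochberg adjustment over 5769 genes, called under 0.05. The fit was tested on simulated data with independent noise, no shifts between arrays and the same spread in every strain. That setting lacks the shifts and unequal spread seen here, so the fit was not tested under them. The prior carried 177.8 of 185.8 degrees of freedom, so errors are close to a common value (median 0.264). The number of arrays, 3 per strain, limits the precision. The 7 genes, gene lists and comparisons were chosen with earlier results of these data known. The named genes are the 7, their 2 nearest annotated genes on each side, genes under -1 in all 3 mutants with the 3 nearest outside, the 8 most alike, and all list members, of which those with calls or as examples are printed. AIM22 and YHR140W, the nearest measured genes where the rule gave none on that side, were added after the files were seen. A further neighbouring gene is not reported here. Names and gene order come from a RefSeq table of R64, in which 5763 genes were found and 6 were not; SDH6 had no values. Coordinates are not printed, as no source used here names the array's build. Alternatives were leaving out each array, a replicate block, quantile normalization, centring, a filter on dim genes, an intensity trend, only the 2 strains compared, and the authors' test. A planned count of promoter motifs was not run, as no promoter sequences were used here.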

Additional observations from a re-analysis of the deposited data

How the results depend on the processing

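Counts of called genes varied with the scaling, the samples in the fit and the test. As deposited, 154 genes were called in fhf1, 59 in fhf2 and 1431 in fhf3 against wild type, 1967 between fhf3 and fhf1, 2007 between fhf3 and fhf2, and 18 between fhf1 and fhf2. With centred arrays the counts were 973, 366 and 2741 against wild type and 97 between fhf1 and fhf2, and with quantile normalization 960, 388, 2763 and 91. The share of lower calls moved from 77.9% to 56.6% in fhf1, 78.0% to 68.9% in fhf2 and 92.0% to 42.8% in fhf3 with centring. It moved from 86.4% to 48.3% between fhf3 and fhf1 and from 92.8% to 47.3% between fhf3 and fhf2. Without the 25% dimmest genes, 75 were called in fhf1 and 17 in fhf2, and that filter drops all 7 genes. A fit of only 2 strains called 72 in fhf1, and 3547 between fhf3 and fhf2. The authors' deposited test against 2-fold called 11, 9 and 169. Leaving out 1 array gave 109 to 236 in fhf1, 39 to 104 in fhf2, 925 to 1853 in fhf3, 988 to 3198 between fhf3 and fhf1, 1234 to 2581 between fhf3 and fhf2, and 0 to 38 between fhf1 and fhf2. The cause of these shifts was not tested. Replicate numbers were not taken as pairs, since no label says that a number marks a shared batch. Deviations of same-numbered arrays correlated at -0.241 to 0.449, over 0.1 in 10 of 18 pairs, which include all pairs of replicate 1. Of the 12 arrays, 7 correlated best with their own number. These values do not settle whether a number marks a shared batch. With the replicate block the counts were 144, 53, 1311, 1778, 1822 and 13. With the block and centred arrays, added after the data were seen, they were 1162, 474 and 2937 against wild type, 2986 between fhf3 and fhf1 and 181 between fhf1 and fhf2.

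For the 7 genes between mutants, 359 values under alternatives stayed on the same side of the threshold, 12 passed newly and 7 were lost. Among the other genes named, 227 values under alternatives differed in sign, most of them passing in neither fit. Of these, 9 passed under the alternative, all in fhf3 against wild type: DIT1 (-0.09; 0.36 with quantile normalization, 0.29 centred and 0.29 with block and centring), OSW1 (-0.01; 0.37 centred and 0.37 with the block), AGA2 (-0.18; 0.34 with quantile normalization), ASG7 (-0.20; 0.32) and GPA1 (-0.11; 0.24 with quantile normalization, 0.27 centred).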
